A study of Mus musculus with 12 samples.

Results

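Genes of the growth hormone, STAT5 and IGF axis were followed in mouse liver. The 9 genes are Ghr, Stat5b, Socs2, Cish, Bcl6, Igf1, Igfals, Igfbp1 and Igfbp2. They were chosen as the probe sets that the platform annotation pairs with exactly 1 of these symbols, which gave 16 of the 22626 probe sets tested. Probe sets annotated with several symbols that include one of the 9 numbered 0. Where a gene had several probe sets, the brightest one leads and the others are given beside it.

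The livers came from male mice aged 6 to 8 weeks, labelled C57BL/6 in every group. The 4 groups were POR-null mice on a quercetin diet, POR-null mice on the control diet, wild-type mice on the quercetin diet and wild-type mice on the control diet. POR-null mice carry a disrupted gene for cytochrome P450 reductase, the flavoprotein that hands electrons to microsomal cytochromes P450. The labels do not say in which cells the gene is disrupted. All groups were fed a soya-free powdered RM3 diet for 14 days. The quercetin groups then received that diet with the flavonol quercetin at 6.2 g per kg, 7 mg for each mouse, and 24 h later the livers were collected. Each group held 3 Affymetrix 430A arrays, and each array carried RNA pooled from 3 mice, so the spread between arrays is one between pools. All values below are log2 expression values as deposited, and a difference of 1 is a doubling or halving of signal.

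Growth hormone, released from the pituitary in pulses, binds its receptor on hepatocytes and activates the kinase JAK2, which phosphorylates STAT5B. STAT5B then enters the nucleus and turns on Igf1, Igfals and the feedback inhibitors Socs2 and Cish. IGF-1 circulates with binding proteins, and the pulse pattern of growth hormone sets much of the sex difference of rodent liver. Whole liver was measured, so fewer cells of a type and less RNA per cell cannot be told apart.

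STAT5 proteins bind the palindrome TTCNNNGAA, which was searched in the promoter windows of RefSeq (GRCm38.p6), 250 bases before to 50 after each gene start. Both strands are covered because the motif reads alike on each. Windows were found for 8 of the 9 genes, all but Socs2. Of their 14 windows 5 held the motif, in Cish, Bcl6 and Igfals, against 8.30% of all 32851 windows. The windows of Cish and Bcl6 are shown because growth hormone regulates these 2 genes in opposite directions. It turns on Cish, a feedback inhibitor, and lowers Bcl6, a repressor. Capitals mark the motif, and each line ends at or shortly after the gene start.
Cish, chr9:107296409-107296678, plus strand, 250 bases before the start and 20 after: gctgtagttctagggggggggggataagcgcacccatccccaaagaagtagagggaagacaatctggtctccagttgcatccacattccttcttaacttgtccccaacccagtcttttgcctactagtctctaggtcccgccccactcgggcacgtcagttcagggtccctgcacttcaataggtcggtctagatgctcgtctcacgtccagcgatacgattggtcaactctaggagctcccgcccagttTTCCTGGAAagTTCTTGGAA
Bcl6, chr16:23981284-23981533, minus strand, 250 bases before the start of its second window: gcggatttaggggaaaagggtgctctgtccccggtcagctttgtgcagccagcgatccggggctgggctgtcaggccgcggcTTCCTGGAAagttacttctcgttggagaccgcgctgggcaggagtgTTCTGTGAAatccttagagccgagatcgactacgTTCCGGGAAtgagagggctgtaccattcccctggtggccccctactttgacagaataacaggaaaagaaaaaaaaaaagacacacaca
In Cish the motif occurred 2 times, beginning at the first transcribed base and 11 bases after it. In the Bcl6 window shown it occurred 3 times, at positions -168, -122 and -88 relative to the start, and the other window of Bcl6 held it once, at -118. A match is a description of letters and not of binding.

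Within groups, pairs of arrays had r = 0.988 to 0.993 over all probe sets, and array medians lay between 5.93 and 5.99. All 8 hepatocyte markers had means of 10.88 or more, above the median of all values (5.96). Markers of exocrine pancreas, which lies next to the liver, differed most between arrays. Set against the average array, their mean was 2.30 for the POR-null quercetin pool 3 and 1.02 for the wild-type control pool 2, and the other pools ranged from -1.24 to 0.82. The transcript of the disrupted gene was not used here as a check of genotype.

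No member passed the test in any of the 7 comparisons. By limma, with Benjamini-Hochberg adjustment over all 22626 probe sets at 0.05, 0 of 16 member probe sets were called between POR-null and wild type on the control diet, where 1.16% of all probe sets were called. On the quercetin diet the count was 0 against 2.33%, and for the genotypes averaged over both diets 0 against 7.58%. For quercetin in wild type, quercetin in POR-null, quercetin averaged over genotypes and the interaction the background itself was 0%. What follows therefore gives levels, differences and intervals, and an unadjusted p under 0.05 marks the larger differences without calling them.

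**Figure D1:**
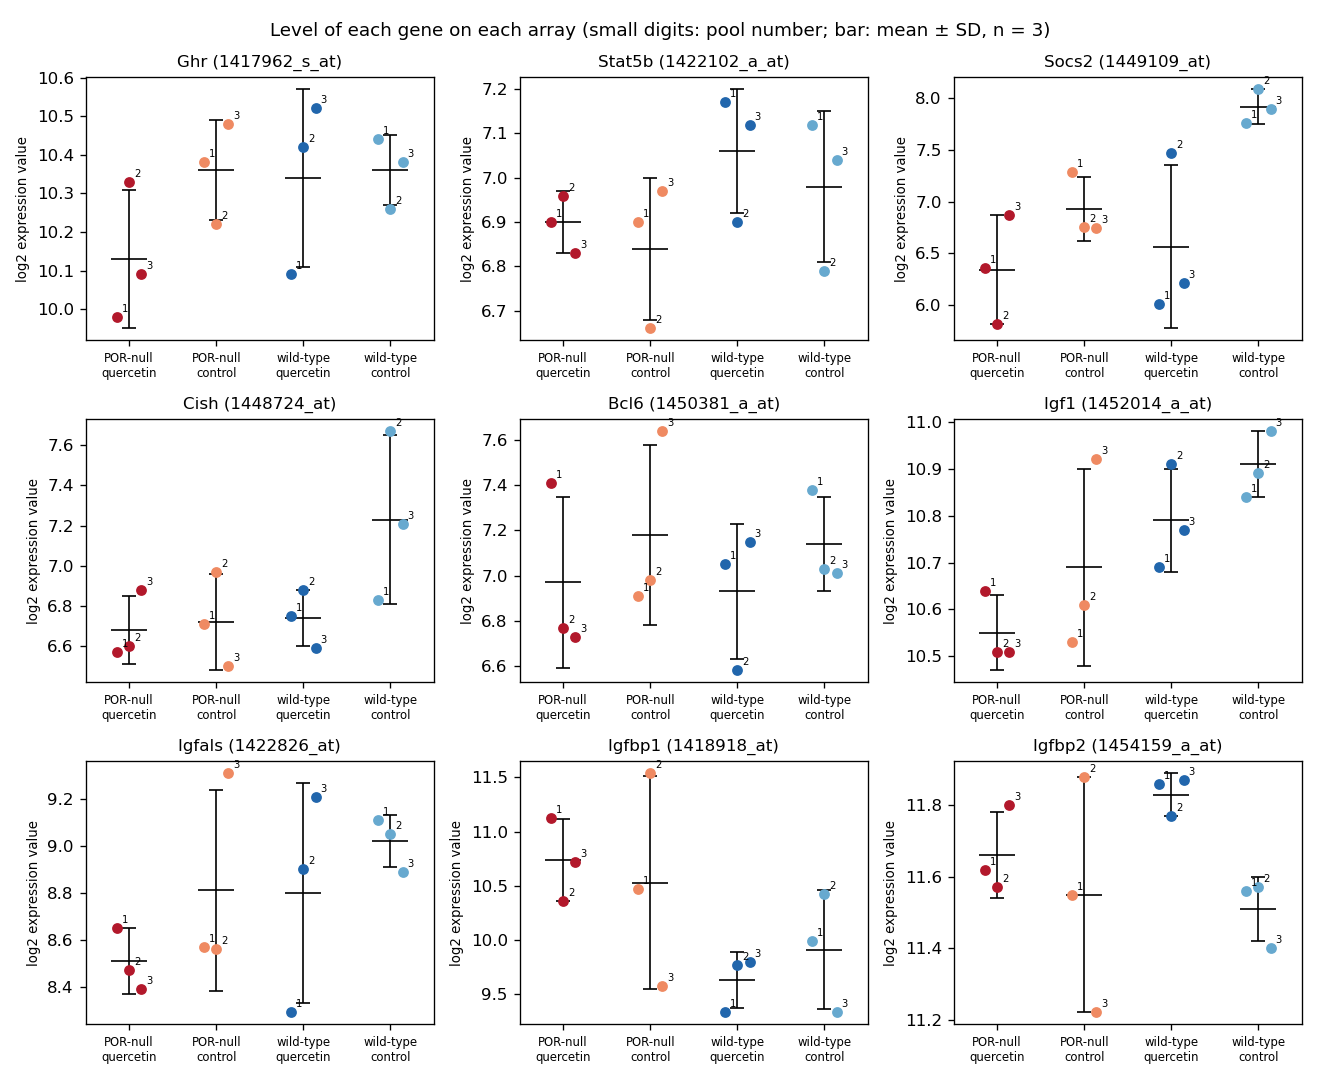
Log2 expression value of each of the 9 genes (brightest probe set) on each of the 12 arrays, by group; small digits are pool numbers, and bars give the mean ± SD of 3 arrays. Socs2 reached 7.76 to 8.09 in the wild-type control arrays and at most 7.47 elsewhere, and the POR-null control pools of Igfbp1 ran from 9.57 to 11.54.

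Ghr encodes the growth hormone receptor, the entry point of the axis. Its probe set 1417962_s_at read 9.98, 10.33 and 10.09 in POR-null quercetin pools, 10.38, 10.22 and 10.48 in POR-null control, 10.09, 10.42 and 10.52 in wild-type quercetin and 10.44, 10.26 and 10.38 in wild-type control. The 4 groups overlapped, with means of 10.13 to 10.36. POR-null and wild type differed by 0.00 ± 0.12 on the control diet (SE, 3 arrays per group, 95% confidence interval -0.25 to 0.26). A second probe set, 1451501_a_at, averaged 9.70 ± 0.23 in POR-null quercetin, 9.80 ± 0.17 in POR-null control, 9.85 ± 0.15 in wild-type quercetin and 9.85 ± 0.25 in wild-type control (SD, n = 3). The third, 1451871_a_at, read 6.69, 7.18 and 6.92 in POR-null quercetin pools, against 7.35, 7.43 and 7.49 in wild-type quercetin pools, with no overlap. That difference was -0.49 ± 0.17 (interval -0.85 to -0.13, unadjusted p = 0.0108, adjusted p = 0.149 by limma). The other Ghr probe sets differed by -0.21 and -0.16 in the same comparison. Across the 12 arrays the 3 Ghr probe sets correlated pairwise at r = 0.72 to 0.78.

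Stat5b encodes the transcription factor that carries most of the growth hormone signal in hepatocytes. Its probe set 1422102_a_at averaged 6.90 ± 0.07 in POR-null quercetin, 6.84 ± 0.16 in POR-null control, 7.06 ± 0.14 in wild-type quercetin and 6.98 ± 0.17 in wild-type control, and the groups overlapped. The second Stat5b probe set, 1422103_a_at, read 6.93, 7.15 and 7.12 in POR-null quercetin pools, 6.84, 6.62 and 6.28 in POR-null control, 6.77, 6.60 and 6.79 in wild-type quercetin and 6.36, 6.88 and 6.57 in wild-type control. Its 3 POR-null quercetin arrays lay above all the others. Quercetin against control diet in POR-null differed by 0.49 ± 0.15 (unadjusted p = 0.00519, adjusted p = 0.607 by limma). The first probe set differed by 0.05 ± 0.12 there, and the 2 did not vary together over the arrays (r = -0.26), so the higher value rests on 1 of 2 probe sets of this gene.

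Socs2, an inhibitor that STAT5 induces and that limits growth hormone signalling, showed the widest spacing of groups. Its probe set 1449109_at read 6.36, 5.81 and 6.87 in POR-null quercetin pools, 7.29, 6.75 and 6.74 in POR-null control, 6.01, 7.47 and 6.21 in wild-type quercetin and 7.76, 8.09 and 7.90 in wild-type control. Each of the 3 wild-type control arrays lay above each of the other 9. The 3 lower groups had means of 6.34, 6.93 and 6.56 and overlapped one another. Quercetin against control diet in wild type differed by -1.36 ± 0.32, a signal 2.56 times lower (interval -2.04 to -0.68, unadjusted p = 0.00072, adjusted p = 0.302 by limma). POR-null against wild type on the control diet differed by -0.99 ± 0.32 (interval -1.67 to -0.31, adjusted p = 0.147). These 2 comparisons share the wild-type control arrays. Without wild-type control array 2, which was high in pancreas markers, Socs2 differed by -1.27 for quercetin in wild type and by -0.90 for POR-null on the control diet. Without wild-type quercetin array 2, the highest of its group at 7.47, the first difference was -1.81 (adjusted p = 0.0956). Without wild-type quercetin array 1 it was -1.08. Over all fits with an array left out, its adjusted p by limma ran from 0.0956 to 0.752.

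The second Socs2 probe set, 1418507_s_at, followed the first at r = 0.97 over the 12 arrays. It averaged 5.72 ± 0.50 in POR-null quercetin, 6.19 ± 0.35 in POR-null control, 5.88 ± 0.56 in wild-type quercetin and 6.93 ± 0.15 in wild-type control. Its difference was -1.05 ± 0.27 for quercetin in wild type and -0.74 ± 0.27 for POR-null on the control diet. In POR-null liver quercetin differed from control by -0.58 ± 0.32 for 1449109_at, with overlapping groups. The interaction for Socs2 was 0.77 ± 0.45 (interval -0.19 to 1.73, adjusted p = 0.828), so a smaller response in POR-null was not shown. With an array left out, the interaction ranged from 0.49 without wild-type quercetin array 1 to 1.23 without array 2, and the quercetin difference in POR-null from -0.84 without POR-null quercetin array 3 to -0.32 without array 2. On the quercetin diet the genotypes differed by -0.22 ± 0.32 (interval -0.90 to 0.46), with values of -0.50 to 0.24 when an array was left out.

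Cish is the related STAT5-induced inhibitor with the paired motif above at its gene start. It read 6.57, 6.60 and 6.88 in POR-null quercetin pools and 6.71, 6.97 and 6.50 in POR-null control. The values were 6.75, 6.88 and 6.59 in wild-type quercetin and 6.83, 7.67 and 7.21 in wild-type control. Wild-type control pools 2 and 3 were the highest, while pool 1 lay within the range of the other groups. POR-null against wild type on the control diet differed by -0.51 ± 0.18 (interval -0.89 to -0.13, unadjusted p = 0.0126, adjusted p = 0.181 by limma), and quercetin in wild type by -0.50 ± 0.18 (adjusted p = 0.485). Both depended on single wild-type control arrays. Without array 1, the genotype difference of Cish was -0.71 (adjusted p = 0.0325) and the quercetin difference -0.70. That fit called 756 of all probe sets between genotypes on the control diet, against 262 with all arrays. Without array 2, which was high in pancreas markers, the differences of Cish were -0.29 and -0.28. Over all fits with an array left out, adjusted p by limma ran from 0.0325 to 0.493 for genotype and from 0.0781 to 0.846 for quercetin. In POR-null liver quercetin differed from control by -0.04 ± 0.18, and the interaction for Cish was 0.46 ± 0.25 (adjusted p = 0.826).

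Bcl6, a repressor that binds many of the same sites as STAT5 and is itself lowered by growth hormone, had no comparison with an unadjusted p under 0.05. Its probe set 1450381_a_at read 7.41, 6.77 and 6.73 in POR-null quercetin pools, 6.91, 6.98 and 7.64 in POR-null control, 7.05, 6.58 and 7.15 in wild-type quercetin and 7.38, 7.03 and 7.01 in wild-type control. Pool 3 of POR-null control and pool 1 of POR-null quercetin were the highest, and all groups overlapped. POR-null and wild type differed by 0.04 ± 0.22 on either diet (interval -0.42 to 0.50). The second probe set, 1421818_at, had group means of 5.02 to 5.31, under the median of all values, and followed the first at r = 0.78.

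Igf1 encodes the growth factor that liver secretes in answer to growth hormone. Its probe set 1452014_a_at read 10.64, 10.51 and 10.51 in POR-null quercetin pools, 10.53, 10.61 and 10.92 in POR-null control, 10.69, 10.91 and 10.77 in wild-type quercetin and 10.84, 10.89 and 10.98 in wild-type control. On the quercetin diet the POR-null pools lay below the wild-type pools without overlap, and on the control diet POR-null pool 3 lay among wild type. Averaged over both diets POR-null differed by -0.23 ± 0.07, a signal 1.17 times lower (interval -0.39 to -0.07, unadjusted p = 0.00706, adjusted p = 0.0715 by limma). This value lies close to the threshold: its adjusted p was 0.0179 after quantile normalization and 0.0115 without POR-null control array 3, but 0.0631 to 0.173 with any other array left out and 0.0543 to 0.0833 under the other settings of the fit.

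The 3 Igf1 probe sets did not move alike. Probe set 1437401_at averaged 9.44 ± 0.25 in POR-null quercetin, 9.88 ± 0.30 in POR-null control, 9.97 ± 0.27 in wild-type quercetin and 9.87 ± 0.15 in wild-type control. POR-null against wild type was -0.54 ± 0.17 on the quercetin diet (unadjusted p = 0.00572, adjusted p = 0.109 by limma) and 0.01 ± 0.17 on the control diet. The difference between these, the interaction, was -0.55 ± 0.23 (unadjusted p = 0.0342, adjusted p = 0.803). Probe set 1419519_at lay the other way on the control diet, at 0.24 ± 0.19, and at -0.12 ± 0.19 on the quercetin diet. Pairwise over the 12 arrays the Igf1 probe sets correlated at r = 0.15 to 0.65.

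Igfals encodes the acid-labile subunit, a STAT5 target that holds IGF-1 in its large circulating complex. It read 8.65, 8.47 and 8.39 in POR-null quercetin pools, 8.57, 8.56 and 9.31 in POR-null control, 8.29, 8.90 and 9.21 in wild-type quercetin and 9.11, 9.05 and 8.89 in wild-type control. The order of means ran from wild-type control (9.02) through POR-null control (8.81) and wild-type quercetin (8.80) to POR-null quercetin (8.51), and neighbours in this order overlapped. Averaged over diets POR-null differed by -0.25 ± 0.15 (interval -0.57 to 0.07, adjusted p = 0.339 by limma).

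Igfbp1, a binding protein that insulin represses and that rises in fasting and stress, had its higher group means in POR-null liver. It read 11.13, 10.36 and 10.72 in POR-null quercetin, 10.47, 11.54 and 9.57 in POR-null control, 9.33, 9.77 and 9.80 in wild-type quercetin and 9.99, 10.42 and 9.33 in wild-type control. On the quercetin diet every POR-null pool lay above every wild-type pool, while on the control diet POR-null spanned 9.57 to 11.54 and overlapped wild type. The genotype difference on the quercetin diet was 1.10 ± 0.38, 2.15-fold (interval 0.30 to 1.90, unadjusted p = 0.0104, adjusted p = 0.147 by limma over all 12 arrays). In a fit of only the 6 quercetin-diet arrays its adjusted p was 0.00712. In the fit of all groups with an array left out, the difference ranged from 0.91 to 1.29. It did not pass in any of these fits (adjusted p = 0.178 to 0.378 by limma). Without POR-null quercetin array 3, the one highest in pancreas markers, the difference was 1.11 in the fit of all groups. On the control diet the difference was 0.61 ± 0.38 (interval -0.19 to 1.41), which became 0.11 without POR-null control array 2 and 1.09 without array 3.

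Averaged over both diets Igfbp1 differed by 0.86 ± 0.27, 1.81-fold (unadjusted p = 0.00576, adjusted p = 0.064). Without POR-null control array 3 this was 1.10 (adjusted p = 0.00634), and without POR-null control array 2 it was 0.61. Over all fits with an array left out, the adjusted p by limma ran from 0.00634 to 0.143. Quercetin against control diet differed by 0.21 ± 0.38 in POR-null and by -0.28 ± 0.38 in wild type, and the interaction was 0.49 ± 0.53. With an array left out these ranged from -0.27 to 0.72 in POR-null, from -0.57 to -0.03 in wild type and from 0.01 to 0.99 for the interaction.

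Igfbp2, another IGF binding protein secreted by liver, read 11.62, 11.57 and 11.80 in POR-null quercetin pools, 11.55, 11.88 and 11.22 in POR-null control, 11.86, 11.77 and 11.87 in wild-type quercetin and 11.56, 11.57 and 11.40 in wild-type control. In wild type the quercetin pools lay above the control pools without overlap, by 0.32 ± 0.13 (interval 0.05 to 0.60, unadjusted p = 0.0248, adjusted p = 0.527 by limma). In POR-null the difference was 0.12 ± 0.13 (interval -0.16 to 0.39) and the interaction -0.21 ± 0.18.

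**Figure D2:**
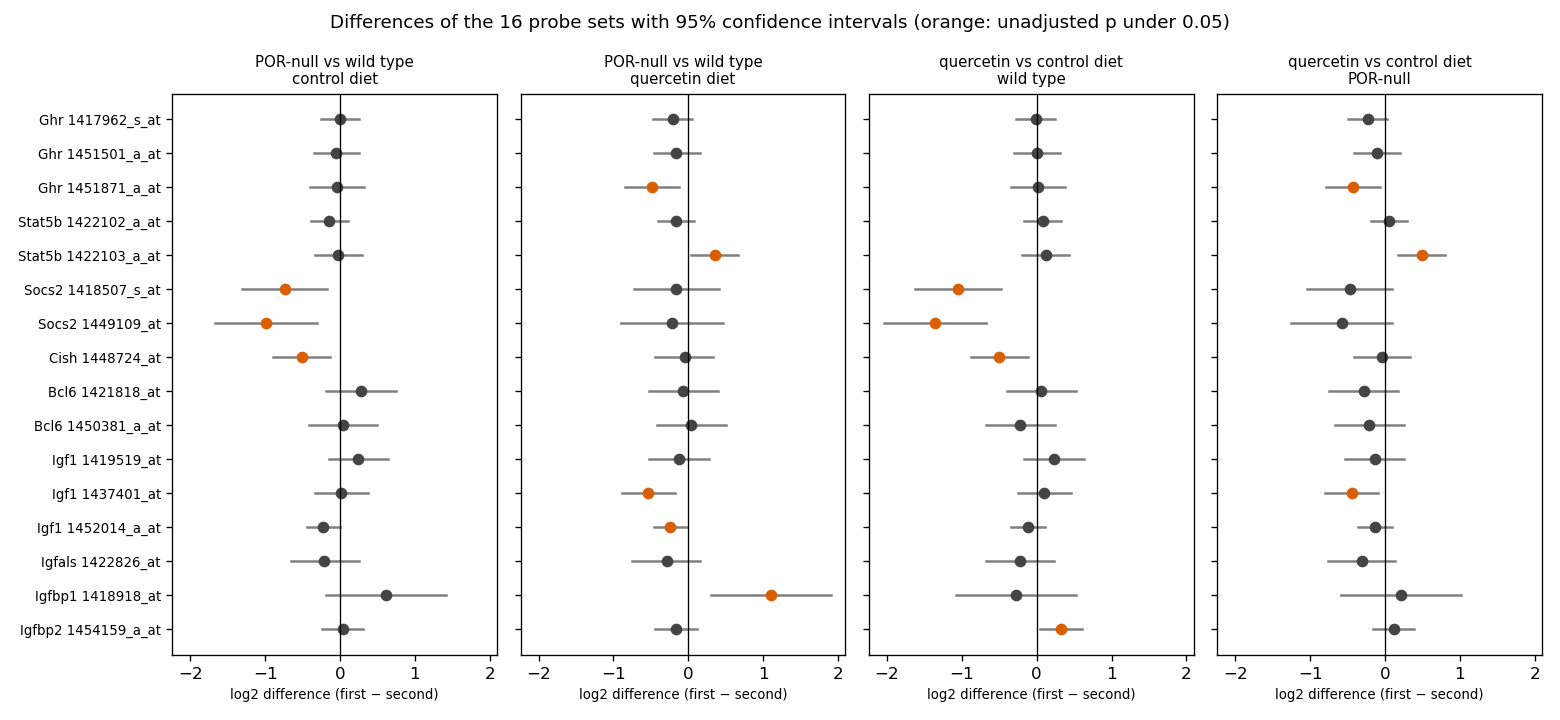
Log2 difference of each of the 16 probe sets in 4 comparisons (x axis, first group minus second), with lines for 95% confidence intervals from limma and orange points where the unadjusted p was under 0.05. The 2 Socs2 probe sets lie at -0.74 and -0.99 for POR-null on the control diet and at -1.05 and -1.36 for quercetin in wild type, and Igfbp1 at 1.10 for POR-null on the quercetin diet.

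Counted together, 3 of 16 member probe sets (18.8%) had an unadjusted p under 0.05 between genotypes on the control diet, all lower in POR-null, against 15.8% of all probe sets. On the quercetin diet there were 5 (31.2%), with 2 higher and 3 lower, against 17.0%. Averaged over diets there were 7 (43.8%), with 1 higher and 6 lower, against 23.0%. For quercetin the counts were 4 in wild type (25%) against 8.58%, 3 in POR-null (18.8%) against 6.99% and 4 averaged over genotypes against 9.19%. The interaction had 1 against 6.17%. Several probe sets of one gene enter these counts, so they are not 16 separate observations.

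Groups that did not overlap were found for 2 member probe sets between genotypes on the control diet (12.5%), against 17.3% of all probe sets, and for 4 on the quercetin diet (25%), against 25.0%. For quercetin they were 3 in wild type (18.8%), against 11.8%, and 1 in POR-null (6.25%), against 14.1%. The shares between genotypes are at or under those of all probe sets. The median difference of the members was -0.03 on the control diet and -0.16 on the quercetin diet between genotypes, beside -0.014 and -0.025 for all probe sets.

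Members differed widely in how far pools of one group spread. The within-group SD of Igfbp1 was 0.609, larger than that of 99.6% of all probe sets, and that of Socs2 (1449109_at) was 0.509, larger than 99.4%. Bcl6 (0.332) and Igfals (0.329) exceeded 97.6% and 97.5%. Igf1 probe set 1452014_a_at, at 0.129, exceeded 45.0%. For differences between 2 groups, the half-width of the 95% interval was accordingly 0.22 log2 units for the tightest member and 0.80 for the widest, a precision limited by having 3 arrays per group.

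Whether members vary together between pools was examined for 6 pairs of genes, as deviations of each array from its group mean over the 12 arrays. Cish and Bcl6 ran in opposite directions, with r = -0.64 (Spearman's rho = -0.63, exact permutation within groups p = 0.0262, two-sided, and 0.0417 for rho), and r = -0.73 without the 2 arrays farthest from the median of Cish. After adjustment over the 6 pairs this had p = 0.131 and, for rho, p = 0.117 by the exact permutation test, and so did not pass. Socs2 and Bcl6 had r = -0.50 (rho = -0.51, exact p = 0.15, adjusted p = 0.18), which shrank to -0.21 without 2 arrays. Socs2 and Cish had r = 0.42 (rho = 0.41, exact p = 0.0656, adjusted p = 0.131) and 0.29 without 2 arrays.

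Igf1 and Igfals had r = 0.69 (rho = 0.76, exact p = 0.109, adjusted p = 0.163), and 0.50 without 2 arrays. Socs2 and Igf1 had r = 0.18 (rho = 0.25, exact p = 0.617) and -0.01 without 2 arrays. Igfbp1 and Igfbp2 had the highest value, r = 0.83 (rho = 0.71, exact p = 0.0594, adjusted p = 0.131), but this rested on POR-null control arrays 2 and 3, and without them r was 0.42. By the brightest probe sets, POR-null control array 3 had the highest Ghr, Igf1, Igfals and Bcl6 of its group and the lowest Igfbp1, Igfbp2 and Cish. For Ghr probe set 1451501_a_at, array 1 (9.91) was slightly above array 3 (9.89). Array 3 was also the highest of its group in pancreas markers, at 0.82 against -0.94 and -0.21. In the other groups the arrays highest in these markers differed from one another. Wild-type quercetin array 3 (0.75) had the highest Ghr, Igfals, Bcl6, Igfbp1 and Igfbp2 of its group and the lowest Cish. POR-null quercetin array 3 (2.30) had the lowest Igfals and Bcl6 and the highest Cish and Igfbp2. Wild-type control array 2 (1.02) had the lowest Ghr and the highest Cish, Igfbp1 and Igfbp2. A link of pancreas markers to the members was not tested.

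**Figure D3:**
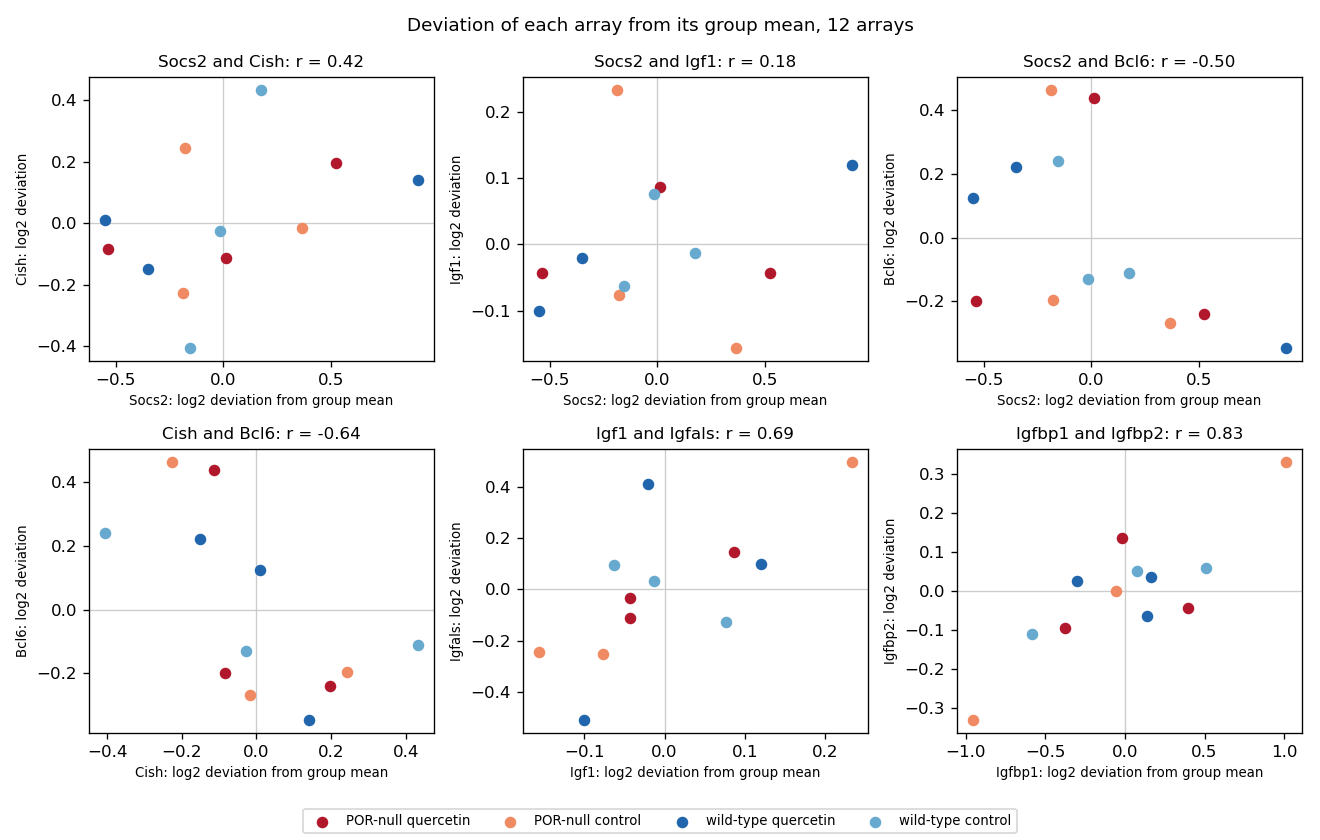
Deviation of each of the 12 arrays from its group mean (log2) for 6 pairs of genes, coloured by group. Cish against Bcl6 slopes downward (r = -0.64), and in the panel of Igfbp1 against Igfbp2 (r = 0.83) the arrays at both ends are POR-null control.

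Among 10321 single-symbol probe sets with a mean above the median of all values, those most like each member over the 12 arrays are given as a description. Socs2 was most like Trim27 and Plod3 (r = 0.888 each), Cish most like Dvl1 (0.930) and Ahsa2 (0.925), and Igfbp1 most like Ctsz (0.922) and Cox7a2 (0.904). Igf1 was most like Osgin1 (0.940) and Dnm2 (0.922), Igfbp2 most like Ei24 (0.965) and Ywhae (0.927), and Igfals most like Gatad2b (0.848) and Ptcra (0.837). For Ghr they were Hsd3b3 (0.877) and Rgn (0.835), for Stat5b Ncald (0.835) and Pecr (0.826), and for Bcl6 Mob1a (0.778) and Nrp1 (0.774). These coefficients are the highest of many and share the groups of the design.

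Other genes of the pathway were counted from lists chosen with earlier results of these data known, with 1 probe set per gene, the brightest. Of 13 measured partners of receptor signalling, 0 passed on either diet, and 1 passed for the genotypes averaged over diets, where 7.94% of 12393 genes were called. That gene was Stat3, a transcription factor activated by cytokines and also by growth hormone, which rose by 0.34 ± 0.08 (adjusted p = 0.024 by limma). It read 9.15, 8.79 and 8.86 in POR-null quercetin and 8.72, 8.80 and 8.72 in POR-null control, against 8.37, 8.43 and 8.57 in wild-type quercetin and 8.36, 8.45 and 8.79 in wild-type control. It kept its call in 7 of 12 fits with an array left out and not after quantile normalization (adjusted p = 0.076). On the control diet the lowest p were those of Grb10, an adaptor that dampens receptor signalling (0.31 ± 0.11), the inhibitors Socs1 (-0.24 ± 0.10) and Socs3 (-0.41 ± 0.22), and the phosphatase Ptpn1 (-0.18 ± 0.08), none past the threshold (adjusted p = 0.162 to 0.404).

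Of 13 other genes of the IGF system, 0 passed in any comparison, against 1.24% of all genes between genotypes on the control diet, 2.49% on the quercetin diet and 7.94% averaged over diets. On the control diet the lowest p were those of Igfbp7 (0.40 ± 0.22), Igf2 (-0.15 ± 0.11) and the insulin receptor substrates Irs2 (-0.16 ± 0.12) and Irs1 (-0.22 ± 0.17), at adjusted p = 0.412 to 0.583 by limma. The same genes differed on the quercetin diet by -0.41 ± 0.22 (Igfbp7), -0.23 ± 0.11 (Igf2), 0.11 ± 0.12 (Irs2) and -0.55 ± 0.17 (Irs1, adjusted p = 0.106), so Igfbp7 and Irs2 had opposite signs on the 2 diets. The interaction for Igfbp7 was -0.80 ± 0.31 (unadjusted p = 0.0214, adjusted p = 0.803). The list's median difference averaged over diets was -0.05, beside -0.023 for all genes.

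Sex-biased liver genes, whose levels depend on the growth hormone pulse pattern, were counted from a male-biased and a female-biased list. These too were chosen with earlier results known, and a link of their differences to growth hormone was not tested. Of 17 male-biased genes 0 passed on the control diet, 2 fell on the quercetin diet (2.49% of all genes called) and 3 fell averaged over diets (7.94% called), with 0 rising. Whether called or not, 10 of the 17 lay below 0 and 7 above on the control diet. The counts were 16 and 1 on the quercetin diet and 12 and 5 averaged over diets. Of all probe sets, 53.4% lay below 0 on the control diet, 56% on the quercetin diet and 56.4% averaged over diets. The median difference of this list was -0.16 on the control diet, -0.36 on the quercetin diet and -0.25 averaged over diets, beside -0.017, -0.027 and -0.023 for all genes. Slco1a1, an organic anion transporter, read 7.58, 8.62 and 9.13 in POR-null quercetin and 8.98, 9.03 and 9.72 in POR-null control, against 10.10, 10.34 and 10.26 in wild-type quercetin and 10.28, 10.05 and 10.04 in wild-type control. All 6 POR-null pools lay below all 6 wild-type pools, and the averaged difference was -1.33 ± 0.20 (adjusted p = 0.0014 by limma).

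Gstp1, a glutathione transferase, fell by 0.72 on the log2 scale averaged over diets (SE 0.11, adjusted p = 0.00123 by limma) and Susd4, a complement regulator, by 0.41 (SE 0.09, adjusted p = 0.0107). Slco1a1, Gstp1 and Susd4 passed in all 12 fits with an array left out. On the control diet Slco1a1 (-0.88 ± 0.28), Gstp1 (-0.52 ± 0.15) and Susd4 (-0.45 ± 0.12) had the lowest p of the list, at adjusted p = 0.0902 to 0.147, followed by Cyp4a12a (0.24 ± 0.15). Hsd3b5, a steroid dehydrogenase of male liver named here after its values were seen, differed by more than any of these averaged over diets but did not pass (-1.79 ± 0.53, adjusted p = 0.056). Its pools spread widely, with an SD of 1.24 in POR-null quercetin and 1.96 in POR-null control. In wild type the SD was 0.52 on quercetin and 0.69 on control diet. On the control diet Hsd3b5 differed by -1.17 ± 0.75 (interval -2.79 to 0.44). The list's count of 2 on the quercetin diet ranged up to 6 under other settings of the fit, and averaged over diets its 3 ranged up to 5. The Gstp1 probe set can also detect a near-identical copy of that gene.

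Of 13 measured female-biased genes 1 rose on the control diet (1.24% of all genes called), 1 on the quercetin diet (2.49%) and 5 averaged over diets (7.94%), with 0 falling. The count of 5 ranged from 3 to 5 with an array left out and went down to 2 under other settings of the fit. The count of 1 on the control diet ranged from 0 to 3 with an array left out. Sult1e1, the estrogen sulfotransferase, read 8.34, 7.09 and 8.10 in POR-null quercetin and 6.66, 7.28 and 5.55 in POR-null control, against 4.76, 4.42 and 4.47 in wild-type quercetin and 4.32, 4.26 and 4.68 in wild-type control. Each POR-null pool lay above each wild-type pool. It rose by 3.29 ± 0.35 on the quercetin diet (adjusted p = 0.000496 by limma), a call kept in 6 of 6 fits with an array left out. It also rose on the control diet, by 2.08 ± 0.35 (adjusted p = 0.0161), a call kept in 3 of 6 such fits and lost with a robust variance prior (adjusted p = 0.0713) and in a fit of only the groups compared (adjusted p = 0.0682). Cyp17a1, a steroid hydroxylase, rose by 1.47 ± 0.31 averaged over diets (adjusted p = 0.0107), though not with a robust variance prior (adjusted p = 0.0685). Cyp2b9 (0.47 ± 0.11), Cyp3a44 (0.23 ± 0.06) and the peroxisomal transporter Abcd2 (0.43 ± 0.12) also passed. These 3 read under 5.96, the median of all values, on every array, and probe sets of the P450 genes may detect relatives. For the control diet alone, Cyp2b9 (0.58 ± 0.15) and Abcd2 (0.65 ± 0.17) did not pass (adjusted p = 0.0779 each). The list's median difference was 0.04 on the control diet, 0.10 on the quercetin diet and 0.02 averaged over diets, beside -0.017, -0.027 and -0.023 for all genes. Averaged over diets 6 of the 13 genes lay below 0, beside 56.4% of all probe sets. Cyp39a1, an oxysterol hydroxylase named here after its values were seen, differed the other way, by -0.93 ± 0.34 on the control diet (adjusted p = 0.193) and by -0.50 ± 0.24 averaged over diets. Averaged over diets, Abcd2 kept its call in 3 of 12 fits with an array left out, Cyp3a44 in 11, and Cyp2b9, Cyp17a1 and Sult1e1 in all 12.

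Of 9 measured insulin and fasting responsive genes 1 rose and 1 fell averaged over diets, where 7.94% of all genes were called. On either diet alone 0 passed, against 1.24% on the control diet and 2.49% on the quercetin diet. G6pc, which releases glucose from the hepatocyte, rose by 0.50 ± 0.13 (adjusted p = 0.0265 by limma), and Pck1, a gluconeogenic enzyme, fell by 0.36 on the log2 scale (SE 0.10, adjusted p = 0.0343). G6pc kept its call in 7 of 12 fits with an array left out and Pck1 in 4, and G6pc did not pass after quantile normalization (adjusted p = 0.0701). The factors Foxo1 and Foxo3, which insulin inactivates, differed by -0.30 ± 0.13 and -0.24 ± 0.17 on the control diet without passing.

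Markers of cell types moved with genotype in a few genes, in a comparison that called 7.94% of all genes. Averaged over diets, 2 of 8 hepatocyte markers fell, Hnf4a by 0.31 and Tdo2 by 0.26 on the log2 scale (adjusted p = 0.0167 and 0.0313 by limma), and 1 of 7 Kupffer cell markers, Cd5l, rose by 0.70 (adjusted p = 0.0371). The hepatocyte list as a whole lay at -0.15 to 0.02 in POR-null arrays and at -0.03 to 0.12 in wild-type arrays, relative to its mean over all arrays. The Kupffer cell list lay at -0.06 to 0.25 in POR-null and at -0.42 to -0.05 in 5 of 6 wild-type arrays, with wild-type quercetin array 3 at 0.52. Their part in the genotype differences above was not tested. For all 5 pathway lists, 0 genes passed for quercetin in either genotype or for the interaction.

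**Figure D4:**
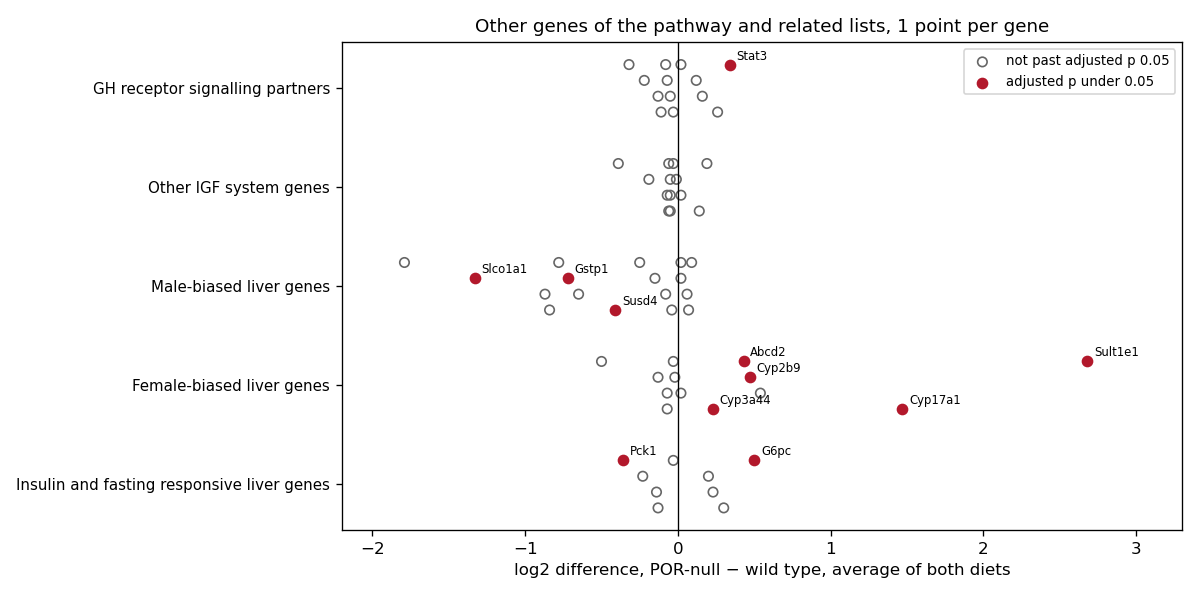
Log2 difference between POR-null and wild type averaged over both diets (x axis) for the measured genes of 5 lists, 1 point per gene, filled where the adjusted p was under 0.05. The called male-biased genes lie at -1.33 to -0.41 and the called female-biased genes at 0.23 to 2.68.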

How the data were processed

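Liver RNA was hybridised to 12 Affymetrix 430A arrays, 1 per pool of 3 mice and 3 per group, with groups and pool numbers taken from the sample titles. The authors deposited log2 expression values, which run from 2.57 to 14.2. MAS5 and RMA are named in the submitters' processing notes, and which of them made these values is not given in the sources used here. The values were used without further normalization or detection calls, and 0 pairs of arrays were identical.

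The 64 control probe sets were left out, and limma 3.58.1 (R 4.3.3) was run on the other 22626. One mean per group was fitted over all 12 arrays, with moderated variances that follow intensity, two-sided tests and Benjamini-Hochberg adjustment over all probe sets. Each difference has its moderated SE, and each group mean its SD over 3 arrays. Symbols came from the platform annotation, matched by gene identifier to RefSeq for 20351 of 20380 single-symbol probe sets, with 0 changes. The fit and the permutation test were tested on simulated data.

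The members and the gene lists were chosen with earlier results of these data known. Named genes are all members, list genes past the threshold, and the 4 genes per list with the lowest p on the control diet. Hsd3b5 and Cyp39a1 fall outside this rule and were picked with their values known. The alternatives were a filter on low values, quantile normalization, other variance priors, the pool number as a replicate block, fits of only the groups compared, and leaving out each array. Nothing says that pool numbers pair samples, so the main fit has no block. Pools come from separate mice, and the p-values of limma set a difference of group means against the moderated spread between pools.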

Additional observations from a re-analysis of the deposited data

How the results depend on the processing

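The count of member probe sets past the threshold was 0 in all 7 comparisons, and 6 of 99 alternative counts moved from it. For the genotypes averaged over diets it was 1 after quantile normalization (Igf1) and 1 with the replicate block (Igfbp1, adjusted p = 0.0468), and for the genotypes on the quercetin diet it was 2 when only the groups compared were fitted (Igfbp1, and Ghr at adjusted p = 0.0484). With an array left out it ranged from 0 to 1 on the control diet (Cish, without wild-type control array 1) and from 0 to 2 averaged over diets. There the call of 1 without wild-type control array 1 was Cish (adjusted p = 0.0439), and the 2 without POR-null control array 3 were Igfbp1 and Igf1. The cause was not tested. Deviations of same-numbered arrays correlated at r = -0.18 to 0.24, and 5 of 18 pairs exceeded 0.1. Of 12 arrays, 6 correlated best with their own number. Whether pool numbers pair the samples cannot be told from these values. Of 112 single differences, 38 changed sign under some alternative (5 values under quantile normalization and 82 with an array left out), always with neither fit past the threshold. In the main fit these 38 had an unadjusted p by limma of at least 0.318 and a size of at most 0.22. Counts over all probe sets depended on single arrays. On the control diet 262 were called between genotypes, 30 when only the groups compared were fitted, and 35 to 756 with an array left out. On the quercetin diet 527 were called, against 950 in the fit of those groups and 127 to 389 with an array left out, and averaged over diets 1714, against 991 to 2128. For quercetin in wild type the count was 0, and it was 1 with the low-value filter, 1 without the variance trend, 2 with the replicate block and 151 without wild-type control array 1. With an array left out it reached 4 in POR-null, 24 averaged over genotypes and 1 for the interaction. The number of arrays, 3 per group, sets the width of the intervals given for each member.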
